A study of Homo sapiens and Mus musculus with 41 samples.

Results

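The genes described here are 37 genes of 2 linked stress responses, the amino acid response run by the transcription factor ATF4 and the unfolded protein response of the endoplasmic reticulum (ER). They were taken by symbol, ignoring case, from 4 deposited tables of normalized read counts, and 37 of 37 were found in each of the 23368 rows of a human table and the 23337 rows of the mouse table. Of these, 24 form the ATF4 arm and 13 the chaperone arm. RNA had been sequenced from 41 libraries of cultured tumour lines and their derivatives that spread to the leptomeninges, the thin membranes around the brain and spinal cord.

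Each of 4 models, all stably expressing GFP, had 4 stages. Par is the parental line itself, Int a derivative of an intermediate stage, Lep a derivative of leptomeningeal metastases and BrM a brain metastatic derivative. HCC1954 is a human ductal breast carcinoma line with raised HER2/Neu, and MDA-MB-231 a human breast carcinoma line that lacks the estrogen receptor, the progesterone receptor and HER2. PC9 is a human lung adenocarcinoma line with raised EGFR, and LLC the Lewis lung carcinoma of a C57/B6 mouse. Every model had 3 Par and 2 Int libraries. Lep had 3 libraries in HCC1954 and LLC and 2 in MDA-MB-231 and PC9, whereas BrM had 2 in HCC1954 and 3 elsewhere. Metastatic cells were washed out of the leptomeningeal space of mice, cultured until they were uniformly GFP positive and passaged, and the values are those of cells in culture and not in the meninges. How the BrM derivatives were made is not described in the labels. MDA-MB-231 and LLC cells were kept in DMEM and the other models in RPMI1640, each with 10% serum and added glutamine. The medium was therefore the same for all stages of a model and differed between models. Par replicates are described as technical, Int and Lep replicates as partly biological and partly technical without saying which, and those of BrM not at all, so p-values measure the spread between libraries.

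Cells that lack an amino acid, or whose ER fills with unfolded protein, phosphorylate the translation initiation factor eIF2. General translation then slows while ATF4 is translated, and ATF4 raises genes for amino acid synthesis, amino acid transport, tRNA charging and, under lasting stress, cell death. In parallel, ER stress activates ATF6 and splices XBP1 RNA, and both factors raise ER chaperones and the machinery that removes misfolded proteins. ATF4 is controlled largely at translation and XBP1 by splicing, so their RNA totals reported here do not measure the active proteins.

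The DNA elements of the 2 arms could be looked up for human genes. RefSeq promoter windows of GRCh38.p14, from 250 bases before to 50 bases after the transcription start, were matched for 32 of 37 members. No window was found for NUPR1, PSPH, SHMT2, GARS and SARS. The C/EBP-ATF element, which ATF4 binds with a C/EBP partner, searched as TGATGNAAN on both strands, lay in 5 of 19 ATF4 arm windows (26.3%), in 1 of 13 chaperone windows (7.69%) and in 1002 of all 27305 windows (3.67%). The ER stress element, searched as CCAAT, 9 bases of any kind and CCACG on both strands, lay in 4 of 13 chaperone windows (30.8%), in 0 of 19 ATF4 arm windows and in 22 of all windows (0.0806%). Its second form, ATTGG, 1 base of any kind and CCACG, lay in 2 of 13 chaperone windows (15.4%), in 0 of 19 ATF4 arm windows and in 15 of all windows (0.0549%). A match describes these letters and not a bound site, and the build differs from that of the counts. No mouse window was used.

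The stretches below, written 5′ to 3′ along the gene's strand, are shown because the results turn on these members or, for ASNS and AARS, because they hold the element without having been called. By the calls described below, HSPA5, HSP90B1, SDF2L1, CRELD2 and HERPUD1 were called in LLC only, a mouse model whose promoters were not looked up. Their human stretches therefore do not describe the genes that were called. The ATF4 arm window not shown is that of SLC3A2, whose element lies after the start. All elements shown lie before the transcription start, and the capitals mark the element, which reads on the opposite strand in CHAC1, AARS, SDF2L1, CRELD2, the first element of HERPUD1 and the second of HSP90B1. ATF3, a stress-induced repressor, is at chr1:212565196-212565244 (+ strand), ASNS, asparagine synthetase, at chr7:97872448-97872496 (- strand), CHAC1, which degrades glutathione, at chr15:40953241-40953289 (+ strand) and AARS, alanyl-tRNA synthetase, at chr16:70289666-70289714 (- strand). HSPA5, the main ER chaperone, is at chr9:125241371-125241429 (- strand), HSP90B1, the ER form of HSP90, at chr12:103930196-103930359 (+ strand), and XBP1 at chr22:28800583-28800641 (- strand). SDF2L1, a partner of HSPA5, is at chr22:21642094-21642144 (+ strand), CRELD2, a secreted ER stress protein, at chr22:49918534-49918592 (+ strand) and HERPUD1, of ER-associated degradation, at chr16:56931945-56932055 (+ strand). HERPUD1 is the 1 chaperone arm member whose window holds elements of both kinds.
ATF3: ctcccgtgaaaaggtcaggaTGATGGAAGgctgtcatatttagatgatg
ASNS: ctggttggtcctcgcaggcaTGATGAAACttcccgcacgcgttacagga
CHAC1: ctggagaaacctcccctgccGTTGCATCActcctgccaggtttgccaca
AARS: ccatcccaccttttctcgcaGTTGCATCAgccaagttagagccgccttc
HSPA5: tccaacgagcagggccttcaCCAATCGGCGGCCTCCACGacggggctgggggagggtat
HSP90B1: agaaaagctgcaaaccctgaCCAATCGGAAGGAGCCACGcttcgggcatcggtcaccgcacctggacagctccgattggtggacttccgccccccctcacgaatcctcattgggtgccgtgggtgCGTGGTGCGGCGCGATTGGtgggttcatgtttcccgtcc
XBP1: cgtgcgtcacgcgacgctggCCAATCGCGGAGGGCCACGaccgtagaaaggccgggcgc
SDF2L1: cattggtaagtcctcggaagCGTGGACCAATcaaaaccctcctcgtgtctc
CRELD2: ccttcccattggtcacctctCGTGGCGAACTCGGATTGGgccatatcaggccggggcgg
HERPUD1: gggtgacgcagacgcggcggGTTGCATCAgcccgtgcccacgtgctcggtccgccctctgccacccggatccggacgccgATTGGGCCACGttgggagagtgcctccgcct

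Recovered read totals ran from 16792027 to 110830546 per library, with both Int libraries the deepest in HCC1954, MDA-MB-231 and LLC and Int replicate 1 the deepest in PC9. In LLC EPCAM and CDH1 were near 0 (at most 2.56 and 4.76), while the epithelial keratins KRT8 and KRT18 were present and KRT19 ran from 7.67 to 647. CDH1 was low in MDA-MB-231 beside high VIM, and the lung factor NKX2-1 was near 0 in the lung lines. Those lines thus did not carry every defining marker of their labelled tissue. The breast line HCC1954 held NKX2-1 at 113 to 607, and its KRT19 averaged 43048 in Par and 533, 358 and 948 in Int, Lep and BrM. In bulk RNA, fewer cells that express a gene and less RNA per cell cannot be told apart. Values below are normalized counts per library, and log2 fold changes come from limma on log2(value + 1) over all genes of a model, with Benjamini-Hochberg adjusted p-values. A gene was called, and is said to have risen or fallen, when adjusted p was below 0.05 and the change at least 1 on the log2 scale. Counts at an unadjusted p below 0.05 are given for members alone, without the share over all genes. The same holds where libraries of different stages are said not to overlap. Neither shows whether members differed more than genes at large. The members tested numbered 37 in HCC1954, PC9 and LLC and 36 in MDA-MB-231, where CBS stayed below the filter. All comparisons with Par in a model share the same Par libraries, as do those of Lep with other stages the Lep libraries.

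**Figure D1:**
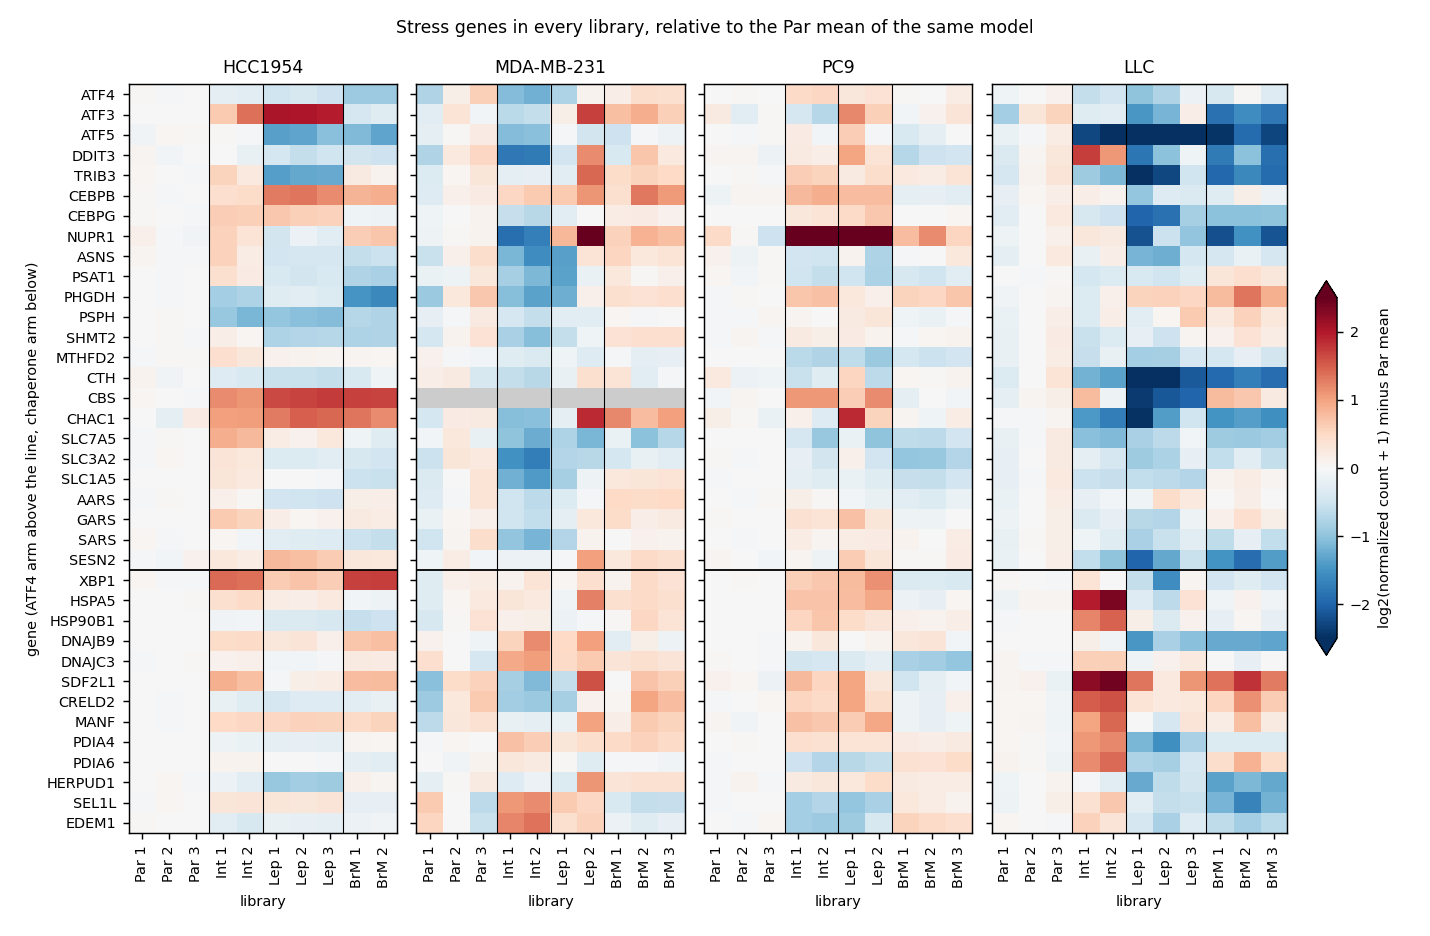
Each row is a member and each column a library, grouped by stage within 4 models, and the colour is log2(normalized count + 1) minus the Par mean of that model, from blue (lower) to red (higher), with grey for CBS in MDA-MB-231, which was not tested. Most ATF4 arm rows are blue in the Lep and BrM libraries of LLC and in the Int libraries of MDA-MB-231, and most chaperone rows are red in the Int libraries of LLC.

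In LLC the Lep cells held less RNA of the ATF4 arm than the parental cells. Of its 24 members 8 fell and 0 rose in Lep with Par, and 21 had a negative log2 fold change, with a median of -0.69 beside 0.00 over all 13494 genes tested. Over all genes 12.3% fell and 20.3% were called in either direction, so the share of the arm that fell was above that of genes at large. The fallen members were mainly transcription factors and their inhibitor (ATF5, TRIB3, CEBPG, NUPR1) and the enzymes of cysteine and glutathione metabolism (CTH, CBS, CHAC1). Transporters and tRNA synthetases did not pass the fold threshold, with log2 fold changes of -0.67 to 0.20.

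ATF5, a factor translated under eIF2 phosphorylation, had 7603, 8332 and 9746 normalized counts in Par and 405, 1140 and 1170 in Lep. The groups lay far apart, and the log2 fold change was -3.38 ± 0.32 (SE, adjusted p = 9.29e-06). CTH, the enzyme that makes cysteine from cystathionine, had 3597, 4510 and 5753 in Par and 344, 495 and 1064 in Lep, with no overlap, and fell with a log2 fold change of -3.00 ± 0.31 (SE, adjusted p = 1.88e-05). CBS, which makes cystathionine, was scarce, at 26.3, 32.5 and 34.5 in Par and 5.11, 6.39 and 7.03 in Lep. Its groups did not overlap either, and it fell with -2.16 ± 0.33 (SE, adjusted p = 0.00024). TRIB3, a pseudokinase that restrains ATF4 and DDIT3, had 7885, 11190 and 13045 in Par and 833, 2163 and 7374 in Lep. The third Lep library came close to the lowest Par library while the first was the lowest of all, and the log2 fold change was -2.14 ± 0.55 (SE, adjusted p = 0.00664). CEBPG, a dimer partner of ATF4, went from 5785, 6943 and 8211 to 1755, 1895 and 3869, a log2 fold change of -1.56 ± 0.24 (SE, adjusted p = 0.000276).

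CHAC1 (-1.45 ± 0.35 SE, adjusted p = 0.00474), SESN2, a sestrin that restrains mTORC1 (-1.27 ± 0.28 SE, adjusted p = 0.00271), and NUPR1, a small chromatin-bound stress protein (-1.23 ± 0.33 SE, adjusted p = 0.00817), fell by less. ATF4 itself was at 26900, 28866 and 30904 in Par and 14395, 17220 and 25932 in Lep. All Lep libraries lay below all Par libraries, and the log2 fold change of -0.63 ± 0.19 (SE, adjusted p = 0.0163) passed adjusted p but not the fold threshold. ASNS gave 16744, 20056 and 23587 in Par against 8927, 8570 and 14678 in Lep, also without overlap, with -0.94 ± 0.20 (SE, adjusted p = 0.00251). DDIT3, the pro-death factor CHOP, had 2238, 3011 and 3469 in Par and 819, 1396 and 2644 in Lep, which overlapped, with -0.98 ± 0.36 (SE, adjusted p = 0.0404). PHGDH, the first enzyme of serine synthesis, was the member with the largest positive value of the arm, 0.55 ± 0.15 (SE, adjusted p = 0.0114), and was not called.

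The size of this difference rested in part on single Lep libraries. Without Lep replicate 1, the lowest for most members, 6 members of both arms were called in place of 10, and the median of the ATF4 arm was -0.54. Over all genes 2506 were called in place of 2734. CHAC1, NUPR1, SESN2 and DNAJB9 then missed the fold threshold, at -0.94, -0.76, -0.92 and -0.92. Lep replicate 3, the highest for 19 of 24 ATF4 arm members, was also the deepest Lep library, at 49473662 reads against 27329692 and 26787313, and the part of depth was not tested. The summed level of 5 fibroblast markers, all in the table, ran from 4175 to 4513 in Par, 1184 to 2095 in Lep and 838 to 1106 in BrM, and its part was not tested either.

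**Figure D2:**
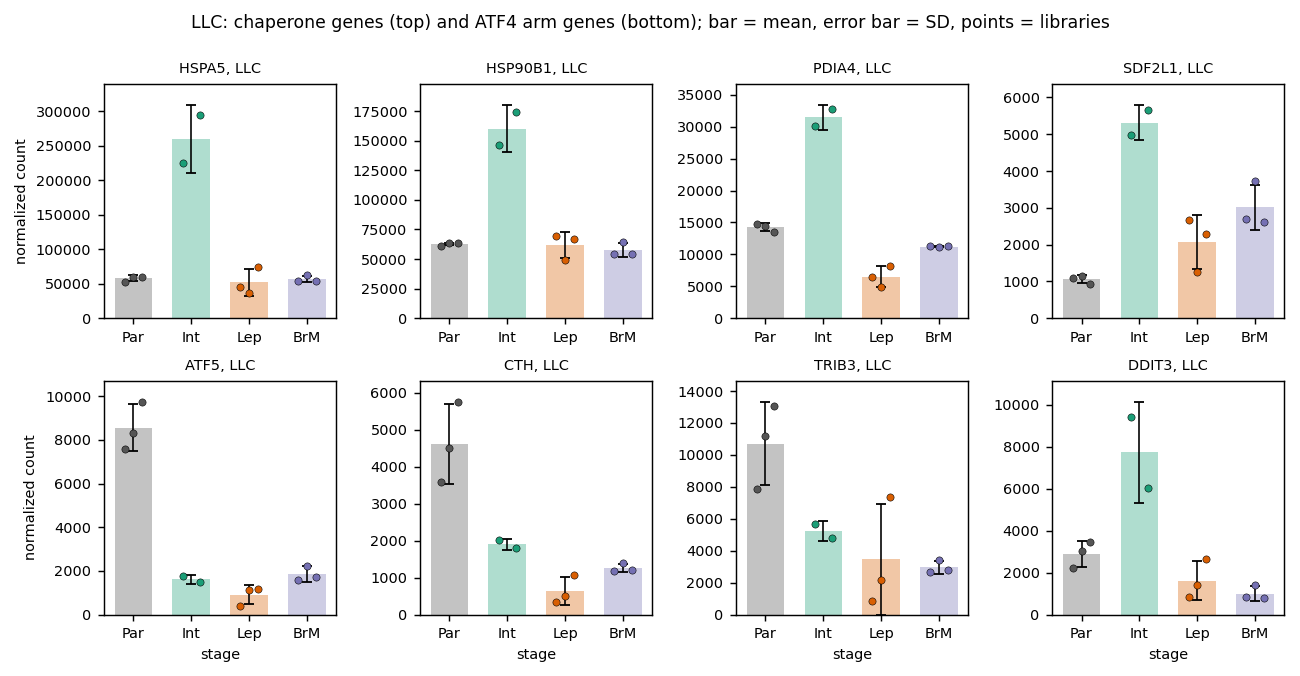
Normalized counts in LLC by stage for 4 chaperone genes (top) and 4 ATF4 arm genes (bottom); bars are means, error bars SD and points single libraries. The Int bars of HSPA5, HSP90B1, PDIA4 and SDF2L1 stand above all other stages, while ATF5, CTH and TRIB3 are highest in Par and DDIT3 in Int.

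The 2 arms parted in the Int cells of LLC. In Int with Par 7 of 13 chaperone members rose and 0 fell, with a median log2 fold change of 1.14 beside 0.00 over all genes, of which 6.40% rose and 5.08% fell. In the ATF4 arm 1 member rose and 4 fell, with a median of -0.35. HSPA5 had 52559, 60096 and 60199 normalized counts in Par and 224287 and 293771 in Int, a log2 fold change of 2.16 ± 0.25 (SE, adjusted p = 0.000115). Both Int libraries stood above every Par library. SDF2L1 went from 1104, 1143 and 936 to 4983 and 5647, with 2.33 ± 0.27 (SE, adjusted p = 0.000121). CRELD2 went from 1553, 1555 and 1409 to 4304 and 4543, with 1.56 ± 0.16 (SE, adjusted p = 6.69e-05). Neither of these overlapped between stages.

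HSP90B1 (1.35), the disulfide isomerases PDIA6 (1.29) and PDIA4 (1.14), and MANF (1.22), a secreted ER stress protein, rose as well on the log2 scale. DNAJC3, SEL1L and EDEM1 passed adjusted p with smaller positive values of 0.45 to 0.60. XBP1 RNA was at 6267, 6183 and 6059 in Par and 7848 and 6206 in Int, overlapping, with 0.18 ± 0.32 (SE, adjusted p = 0.722), while DNAJB9 (0.03) and HERPUD1 (-0.14) were not called.

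Within the ATF4 arm, DDIT3 had 9435 and 6038 normalized counts in Int against 2238, 3011 and 3469 in Par, and rose with 1.40 ± 0.41 (SE, adjusted p = 0.0251). ATF5, at 1748 and 1471 in Int, was below all Par libraries, with -2.41 ± 0.36 (SE, adjusted p = 0.000721). CHAC1 had 1885, 1911 and 2043 in Par and 716 and 582 in Int, with -1.59 ± 0.39 (SE, adjusted p = 0.0112). CTH (-1.25 ± 0.35 SE, adjusted p = 0.022) and the amino acid transporter SLC7A5 (-1.07 ± 0.19 SE, adjusted p = 0.00222) fell too, whereas ATF4 (-0.54 ± 0.21 SE, adjusted p = 0.083) and ASNS (-0.01 ± 0.23 SE, adjusted p = 0.973) were not called. With quantile normalization HSP90B1 and PDIA4 missed the fold threshold, at 0.86 and 0.97, and the DDIT3 call was lost without Par replicates 1 or 2 or either Int library (adjusted p from 0.0562 to 0.195), as was the CTH call without Par replicates 2 or 3 or either Int library (adjusted p from 0.0557 to 0.134), the CHAC1 and MANF calls without Int replicate 2, and the SLC7A5 call without Par replicate 3. The macrophage marker CD68 averaged 5372 normalized counts in Int and 222 in Par. The summed level of the 5 host immune markers ran from 5163 to 5591 in Int and from 202 to 240 in Par, while PTPRC, CSF1R, ITGAM and AIF1 averaged 3.04, 0.281, 1.11 and 0.555 in Int, near 0, and their part in the result was not tested.

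Against the Int cells, every chaperone arm member was lower in the Lep cells of LLC. In Lep with Int 8 of 13 fell and the other 5 passed adjusted p with smaller negative values, with a median log2 fold change of -1.24 beside -0.01 over all genes, of which 14.0% fell and 22.5% were called in either direction. HSPA5 had 45690, 36606 and 73766 normalized counts in Lep, below both Int libraries, with -2.37 ± 0.25 (SE, adjusted p = 2.07e-05). PDIA4, at 30120 and 32790 in Int, had 6424, 4896 and 8147 in Lep, with -2.31 ± 0.17 (SE, adjusted p = 2.55e-06). PDIA6 went from 59904 and 70476 to 15577, 14956 and 19921, with -1.96 ± 0.17 (SE, adjusted p = 7.18e-06). For HSPA5 and HSP90B1 the Lep libraries lay on both sides of the Par values, and for PDIA4 and PDIA6 all lay below them. With quantile normalization HSP90B1 missed the fold threshold, at -0.76, and DNAJB9 and CEBPG missed it without Lep replicate 1, at -0.95 and -0.90. The CEBPG call was also lost without Lep replicate 2, at -0.95, and without Int replicate 1, at an adjusted p of 0.0512.

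In the same comparison 5 of 24 ATF4 arm members fell and 0 rose, with a median of -0.34. CBS, at 54.3 and 28.1 in Int, fell with -2.49 ± 0.37 (SE, adjusted p = 0.000207), DDIT3 with -2.38 ± 0.41 (SE, adjusted p = 0.00057) and CTH, at 2013 and 1800 in Int, with -1.75 ± 0.35 (SE, adjusted p = 0.00166). NUPR1 (-1.49) and CEBPG (-1.10) were the others. In Lep with Par the chaperone arm had 2 members that fell, PDIA4 and DNAJB9, an HSPA5 co-chaperone. DNAJB9 had 2509, 2480 and 2498 in Par and 910, 1420 and 1217 in Lep, with -1.10 ± 0.15 (SE, adjusted p = 0.000111). PDIA4 had 14797, 14475 and 13531 in Par, above every Lep library, with -1.17 ± 0.15 (SE, adjusted p = 9.08e-05), and missed the fold threshold without Lep replicate 2, at -0.98. XBP1, at 4057, 2095 and 6427 in Lep (-0.70 ± 0.29 SE, adjusted p = 0.0614), and HSPA5 (-0.21 ± 0.22 SE, adjusted p = 0.454) were not called.

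The BrM cells of LLC also held less of the ATF4 arm than Par. In BrM with Par 9 of 24 members fell and 1 rose, and in the chaperone arm 3 of 13 fell and 1 rose, beside 15.1% of all genes that fell and 8.14% that rose. ATF5 had 1563, 2247 and 1740 normalized counts in BrM, with -2.22 ± 0.32 (SE, adjusted p = 0.000164). NUPR1 went from 1848, 2028 and 2189 in Par to 438, 705 and 453 in BrM, with -1.96 ± 0.33 (SE, adjusted p = 0.000398). CTH had 1183, 1386 and 1207, with -1.85 ± 0.31 (SE, adjusted p = 0.000454). All BrM libraries lay below all Par libraries for these genes. DDIT3 had 842, 1397 and 769 in BrM, again below Par, with -1.56 ± 0.36 (SE, adjusted p = 0.00332), and TRIB3, ATF3, SESN2, CHAC1 and CEBPG fell by 1.83, 1.74, 1.60, 1.47 and 1.02 on the log2 scale. Without Par replicate 3 CEBPG missed the fold threshold, at -0.89, and TRIB3 the adjusted p.

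PHGDH was the 1 member of the ATF4 arm that rose in BrM. It had 6768, 7264 and 7560 normalized counts in Par and 12508, 18191 and 13269 in BrM, and rose with 1.01 ± 0.15 (SE, adjusted p = 0.000228), just past the fold threshold. The call was lost with quantile normalization and without Par replicate 1 or BrM replicate 2, at 0.84 to 0.96. ATF4 (-0.23 ± 0.19 SE, adjusted p = 0.324), ASNS (-0.34 ± 0.20 SE, adjusted p = 0.177), HSPA5 (-0.02 ± 0.22 SE, adjusted p = 0.944) and XBP1 (-0.43 ± 0.29 SE, adjusted p = 0.231) were not called. In the chaperone arm SDF2L1 had 2707, 3720 and 2611 in BrM and rose with 1.49 ± 0.24 (SE, adjusted p = 0.000305). SEL1L, of the ER degradation complex, went from 6214, 6794 and 7494 in Par to 3030, 2135 and 3006 in BrM, with -1.34 ± 0.16 (SE, adjusted p = 4.03e-05). DNAJB9, at 1040, 1039 and 1006 in BrM, fell with -1.28 ± 0.15 (SE, adjusted p = 4.11e-05), and HERPUD1 with -1.25 ± 0.18 (SE, adjusted p = 0.00014).

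Lep and BrM cells of LLC differed in fewer members. In Lep with BrM 4 fell and 0 rose, beside 6.85% of all genes that fell and 18.0% called in either direction. CBS had 54.5, 50.2 and 36.2 normalized counts in BrM, all above Lep, with -2.73 ± 0.33 (SE, adjusted p = 6.69e-05). ATF5 (-1.16 ± 0.32 SE, adjusted p = 0.0113) and CTH (-1.15 ± 0.31 SE, adjusted p = 0.0106) were lower in Lep than in BrM too, though both calls were lost when these stages were fitted alone (adjusted p of 0.061 and 0.053) and without Lep replicate 1 (-0.66 and -0.79), and that of CTH also with edgeR, just under the fold threshold, and with DESeq2 (-0.98). PDIA6 had 36124, 48244 and 36575 in BrM, above every Lep library, with -1.26 ± 0.15 (SE, adjusted p = 7.91e-05).

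**Figure D3:**
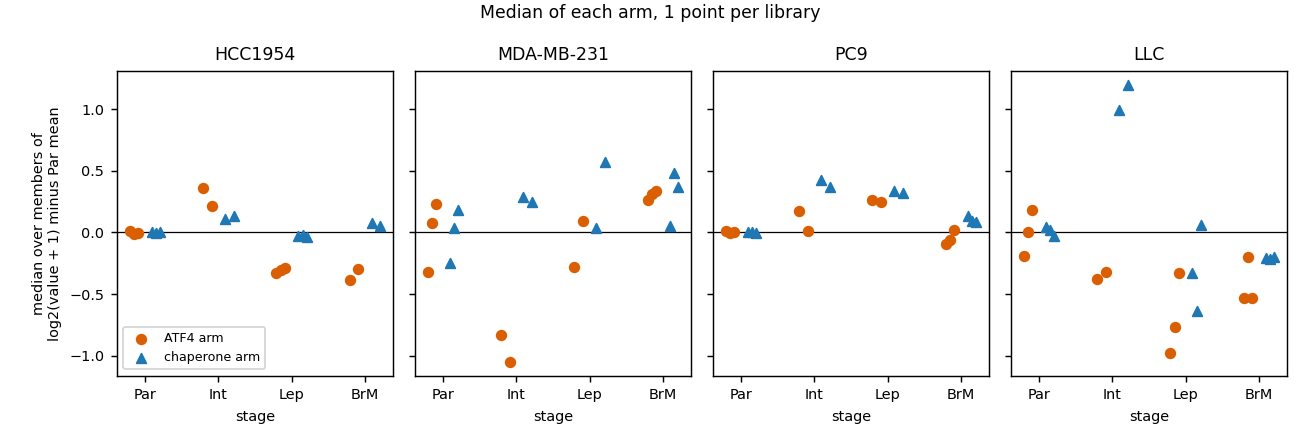
Each point is 1 library, and its height is the median over the members of an arm of log2(value + 1) minus the Par mean of the model, for the ATF4 arm (circles) and the chaperone arm (triangles) by stage. In LLC the Int libraries have chaperone medians near 1 and ATF4 arm medians below 0, and in MDA-MB-231 the Int libraries have the lowest ATF4 arm medians of that model.

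The ATF4 arm was also low in the Int cells of MDA-MB-231, where chaperone arm members lay on both sides of 0. In Int with Par 5 of 23 tested ATF4 arm members fell and 0 rose, and 22 had a negative log2 fold change, with a median of -0.98 beside 0.02 over all 15106 genes. In the chaperone arm 2 of 13 rose and 0 fell, with a median of 0.26. SDF2L1 (-0.96) and CRELD2 (-0.90) had its lowest values and were not called. Over all genes 2.61% fell and 4.33% rose, so the share of the ATF4 arm that fell was above the background. The fallen members were all 3 amino acid transporters together with SARS, seryl-tRNA synthetase, and ATF5.

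SLC3A2, the heavy chain shared by several amino acid exchangers, had 16765, 30052 and 28972 normalized counts in Par and 8502 and 7374 in Int. Both Int libraries lay below every Par library, with -1.63 ± 0.25 (SE, adjusted p = 0.0103). SLC1A5, a glutamine transporter, had 24399, 31541 and 39245 in Par and 13540 and 11639 in Int, with -1.31 ± 0.25 (SE, adjusted p = 0.0206). SLC7A5, the light chain that pairs with SLC3A2 to take up leucine, had 34157, 43145 and 31557 in Par against 17845 and 15211 in Int, with -1.13 ± 0.26 (SE, adjusted p = 0.0342). SARS and ATF5 fell with -1.08 and -1.06. Without either Int replicate all 7 calls of this comparison were lost, at adjusted p from 0.0986 to 0.316, as they were with the 2 stages fitted alone (0.0601 to 0.143). Of 13 alternatives, SARS and SEL1L each lost the call under 8, ATF5 under 7, SLC7A5 under 6, EDEM1 under 5, SLC1A5 under 4 and SLC3A2 under 3.

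NUPR1 and DDIT3 had the lowest log2 fold changes of this comparison but were not called. NUPR1 had 55.4, 61.7 and 64.7 in Par and 15.7 and 17.8 in Int, with -1.79 ± 0.53 (SE, adjusted p = 0.0577). DDIT3 had 914, 1832 and 2224 in Par and 450 and 456 in Int, with -1.77 ± 0.52 (SE, adjusted p = 0.058). ATF4 had 16184, 30019 and 40961 in Par and 12719 and 11837 in Int, with -1.14 ± 0.37 (SE, adjusted p = 0.0693), and ASNS 2416, 3862 and 4835 in Par against 1615 and 1207 in Int, with -1.35 ± 0.45 (SE, adjusted p = 0.0745). Each of these 4 was lower in both Int libraries than in any Par library, and Par replicate 1 was the lowest Par library for each. How many of all genes lay apart in this way was not counted. EDEM1, which marks misfolded glycoproteins for degradation, had 4736, 3285 and 2227 in Par and 7579 and 8353 in Int, and rose with 1.29 ± 0.27 (SE, adjusted p = 0.0261). SEL1L had 6822, 4342 and 2741 in Par against 9243 and 9789 in Int, and rose with 1.14 ± 0.31 (SE, adjusted p = 0.0496). HSPA5 (0.28 ± 0.33 SE, adjusted p = 0.556) and XBP1 (0.21 ± 0.21 SE, adjusted p = 0.473) were not called.

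The number of members called in this comparison moved with the libraries, as did that of all 15106 genes. Members and all genes called numbered 7 and 1049 with all libraries, and 16 and 3845 without Par replicate 1. They numbered 1 and 132 without Par replicate 2, and 3 and 408 without Par replicate 3. The median of the ATF4 arm kept between -1.16 and -0.83 across these fits and those without either Int replicate. Par replicate 1 and the Int libraries leaned to long transcripts (Spearman's rho between length and deviation from the model mean of 0.30 to 0.32 across genes), and Par replicates 2 and 3 to short ones (-0.26 and -0.31). After a correction for length and GC content 9 ATF4 arm members fell and EDEM1 (0.91) and ATF5 (-0.75) missed the fold threshold. Over all genes 1435 were then called in either direction. Across the 13 chaperone members rho between length and log2 fold change was 0.75, and 0.47 after the correction, when their median was 0.13. Across the 23 ATF4 arm members it was 0.02 and -0.16, and their median went from -0.98 to -0.80. The summed level of the 3 endothelial markers, all in the table, ran from 472 to 848 in Par and 937 to 1577 in Int. PECAM1 averaged 32.5 in Par and 655 in Int, CDH5 1.15 and 21.1, and KDR 575 and 581. The sum of the 5 immune markers ran from 7447 to 10898 in Par and 10713 to 11740 in Int, nearly all of it CD68, and CSF1R averaged 59.6 and 240. The part of these markers in the result was not tested.

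The Lep cells of MDA-MB-231 showed no called member. In Lep with Par limma called 0 of 36, beside 0.0662% of all genes, with 6 members higher and 3 lower at an unadjusted p below 0.05. edgeR called 0 members and 8 of all 15106 genes, and DESeq2 called 1 member and 274 genes. NUPR1 had 55.4, 61.7 and 64.7 normalized counts in Par and 108 and 513 in Lep, with 1.94 ± 0.53 (SE, adjusted p = 0.253). DDIT3 had 1118 and 3511 in Lep, with 0.35 ± 0.52 (SE, adjusted p = 0.849), and HSPA5 32572 and 82120, against 27959, 35790 and 40992 in Par, with 0.58 ± 0.33 (SE, adjusted p = 0.602). The 2 Lep libraries stood apart from each other: the second was the higher for 20 of 23 ATF4 arm and 11 of 13 chaperone members, though for 48.6% of all genes. ATF4 had 15797 and 28665 in Lep, with -0.35 ± 0.37 (SE, adjusted p = 0.793), and ASNS 1394 and 4531, with -0.50 ± 0.45 (SE, adjusted p = 0.763). XBP1 had 2917, 3957 and 4096 in Par against 3756 and 4812 in Lep, with 0.23 ± 0.21 (SE, adjusted p = 0.763).

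Lep and Int of MDA-MB-231 differed in 1 direction for the ATF4 arm without passing the test. In Lep with Int all 23 log2 fold changes were positive, with a median of 0.75 beside -0.03. Yet limma called 0 members (0.159% of all genes were called). edgeR called 0 members and 18 of all 15106 genes, and DESeq2 called 4 members and 470 genes. At an unadjusted p below 0.05, 11 members were higher and 2 lower. Without the count of all genes at this cut, these numbers cannot be read against genes at large. NUPR1 had 15.7 and 17.8 in Int, below both Lep libraries, with 3.74 ± 0.58 (SE, adjusted p = 0.0563). In Lep with BrM limma also called 0 members, beside 0.827% of all genes. edgeR called 0 members and 124 of all genes, and DESeq2 called 2 members and 740 genes. At an unadjusted p below 0.05, 4 members were higher and 4 lower. In BrM with Par limma, edgeR and DESeq2 each called 0 members, beside 68 (0.450%), 49 and 471 of all genes. At an unadjusted p below 0.05, 3 members were higher and 1 lower. CBS, untested, was at 0 in every Par and Int library, at 21.1 and 0.747 in Lep and at 0.00, 3.08 and 0.00 in BrM, where a count of 0 allows up to 3 reads.

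**Figure D4:**
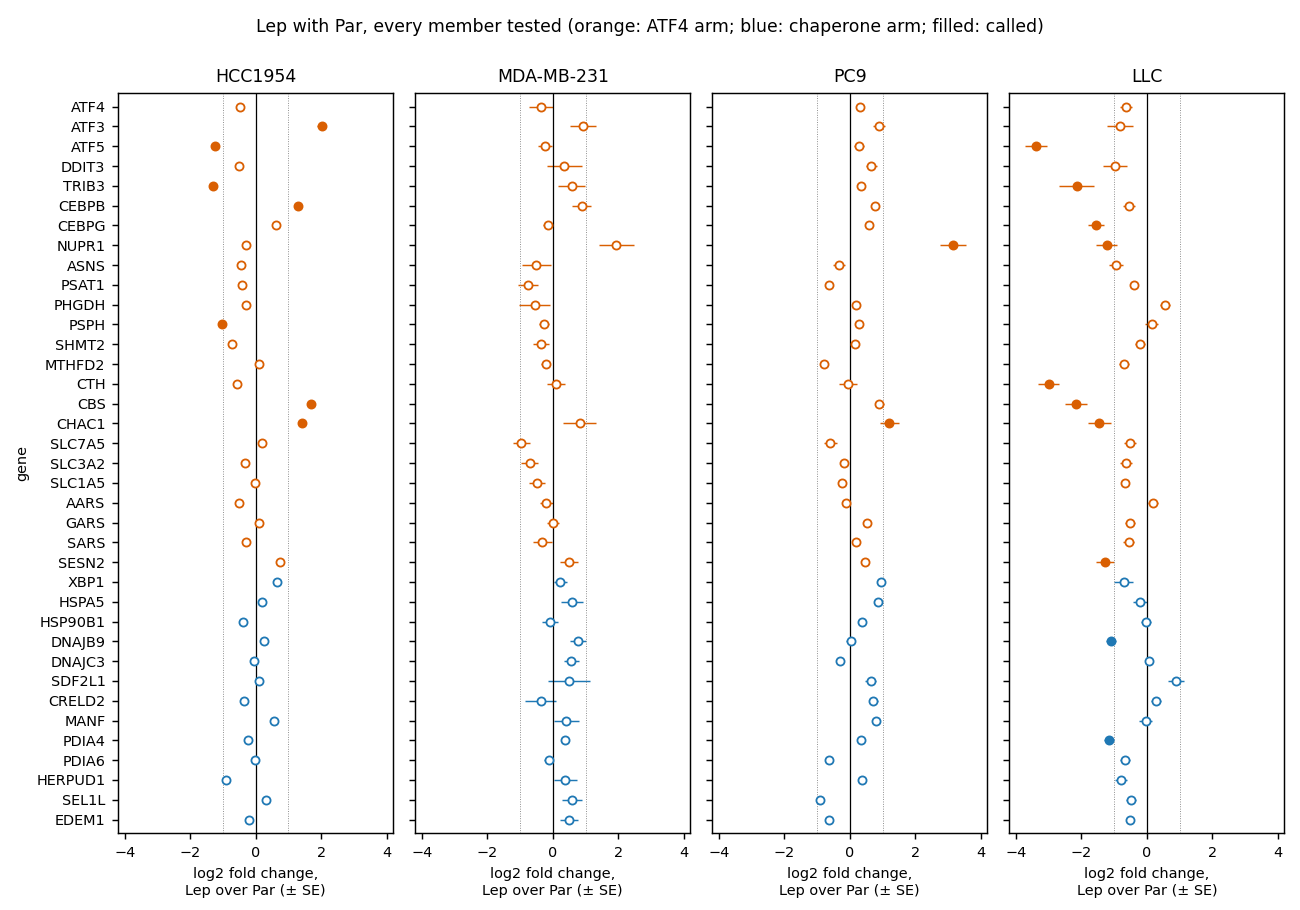
Log2 fold changes of Lep over Par with their SE for every tested member in the 4 models, in the order of their roles; filled points were called, orange marks the ATF4 arm and blue the chaperone arm. In LLC the ATF4 arm lies left of 0 for 21 of 24 members, in HCC1954 the filled points lie on both sides, and MDA-MB-231 has no filled point.

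Few members were called in the Lep cells of PC9. In Lep with Par 2 members rose and 0 fell, both in the ATF4 arm, beside 6.65% of all genes that rose and 15.1% called in either direction, so the share of members called was below the background. NUPR1 was scarce, with 3.68, 2.44 and 1.35 normalized counts in Par against 31.5 and 26.7 in Lep, and rose with 3.16 ± 0.40 (SE, adjusted p = 1.72e-05). CHAC1 had 77.3, 70.8 and 62.1 in Par against 255 and 103 in Lep, and rose with 1.20 ± 0.30 (SE, adjusted p = 0.00309). That call rested on Lep replicate 1, without which the log2 fold change was 0.55, and it was also lost after the length and GC correction, at 0.76.

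Below the fold threshold, XBP1 and the main chaperones were higher in Lep. XBP1 had 863, 883 and 867 in Par and 1509 and 1918 in Lep, with 0.96 ± 0.09 (SE, adjusted p = 1.11e-06). HSPA5 had 10014, 9964 and 9868 in Par against 16930 and 19079 in Lep, with 0.85 ± 0.08 (SE, adjusted p = 9.6e-07). MANF had 0.81 ± 0.09 (SE, adjusted p = 7.14e-06). SEL1L (-0.90), EDEM1 (-0.64), PDIA6 (-0.64) and DNAJC3 (-0.30) were lower at adjusted p below 0.05, so the chaperone arm was split before any correction. In this arm 0 members were called (limma, and likewise edgeR and DESeq2), while at an unadjusted p below 0.05 there were 8 higher and 4 lower. After the length and GC correction SEL1L, EDEM1 and PDIA6 were at -0.83, -0.24 and -0.45, and DNAJC3 changed sign, to 0.20. XBP1, HSPA5 and MANF stayed positive, at 0.96, 1.30 and 0.60. ATF4 had 13666, 14196 and 13678 in Par and 16775 and 17716 in Lep, with 0.32 ± 0.07 (SE, adjusted p = 0.00102). DDIT3 had 244, 246 and 211 in Par, below both Lep libraries, with 0.66 ± 0.16 (SE, adjusted p = 0.00337). ASNS had 1163, 983 and 1102 in Par against 1152 and 635 in Lep, with -0.34 ± 0.18 (SE, adjusted p = 0.125).

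Few members were called in the Int cells of PC9 as well. In Int with Par 2 members rose and 0 fell, beside 6.24% of all genes that rose and 13.9% called in either direction. NUPR1 had 22.0 and 22.9 in Int, with 2.81 ± 0.40 (SE, adjusted p = 4.75e-05), and CBS went from 368, 404 and 386 in Par to 820 and 817 in Int, with 1.08 ± 0.14 (SE, adjusted p = 1.58e-05). XBP1 (0.64 ± 0.09 SE, adjusted p = 3.68e-05), HSPA5 (0.71 ± 0.08 SE, adjusted p = 4.49e-06) and ATF4 (0.50 ± 0.07 SE, adjusted p = 2.65e-05) passed adjusted p alone, while DDIT3 (0.19) did not. In BrM with Par limma, edgeR and DESeq2 each called 0 members, beside 7.72% of all genes called by limma. At an unadjusted p below 0.05, 9 were higher and 10 lower. ATF3 was the member called in Lep with Int (0.228% of all genes rose and 0.608% were called), at 181 and 147 in Int and 556 and 366 in Lep, with 1.47 ± 0.21 (SE, adjusted p = 0.00364). That call was lost without Int replicate 2 and with the 2 stages fitted alone (adjusted p of 0.0788 and 0.203).

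Lep and BrM cells of PC9 differed more. In Lep with BrM 6 members rose and 3 fell, beside 7.83% of all genes that rose and 10.8% that fell. XBP1 had 681, 688 and 672 normalized counts in BrM, all below Lep, with 1.32 ± 0.09 (SE, adjusted p = 5.69e-08). NUPR1 had 4.71, 6.57 and 3.85 in BrM, with 2.34 ± 0.40 (SE, adjusted p = 0.000183). DDIT3 had 142, 162 and 167 in BrM and 461 and 293 in Lep, with 1.23 ± 0.16 (SE, adjusted p = 2.17e-05). CHAC1, at 73.0, 64.4 and 79.0 in BrM (1.16), CEBPB, a C/EBP factor (1.01), and CBS (1.00) rose as well. EDEM1 went from 4122, 3954 and 3786 in BrM to 1529 and 2140 in Lep, with -1.13 ± 0.11 (SE, adjusted p = 9.93e-07), and PDIA6 fell beside it, with -1.04 ± 0.07 (SE, adjusted p = 4.77e-08). SEL1L fell from 2902, 2736 and 2562 in BrM to 1230 and 1375 in Lep, with -1.07 ± 0.07 (SE, adjusted p = 6.47e-08). In PC9 the Par and BrM libraries leaned to long transcripts (rho from 0.18 to 0.27) and the Int and Lep libraries to short ones (-0.33 to -0.25), so this lean and the stage cannot be told apart. After the length and GC correction the median of the ATF4 arm in Lep with Par went from 0.28 to 0.05 and that of the chaperone arm from 0.36 to 0.28, while HSPA5 (1.30) and CEBPG (1.09) then passed both thresholds. After the same correction CBS in Int with Par was at 0.72, and EDEM1, CBS, CEBPB, CHAC1 and PDIA6 in Lep with BrM were at -0.69, 0.76, 0.84, 0.87 and -0.87, below the fold threshold. Without Lep replicate 1 the calls of CHAC1, DDIT3, EDEM1, SEL1L and PDIA6 in Lep with BrM were lost, at 0.51, 0.90, -0.88, -0.99 and -0.99. The CBS call was also lost without Lep replicate 2 (0.72), without BrM replicate 1 (0.94) and with a pseudocount of 8 (0.99), and that of CEBPB with quantile normalization (0.96) and without BrM replicate 3, just under the threshold. The summed level of the 3 endothelial markers ran from 262 to 309 in Par, 875 to 903 in Int, 832 to 1126 in Lep and 264 to 282 in BrM, with KDR near 0, and that of the 3 choroid plexus markers from 28.1 to 37.8, 174 to 258, 161 to 191 and 8.67 to 23.6, with TTR at 0 in every library. Their part in the results of PC9 was not tested.

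**Figure D5:**
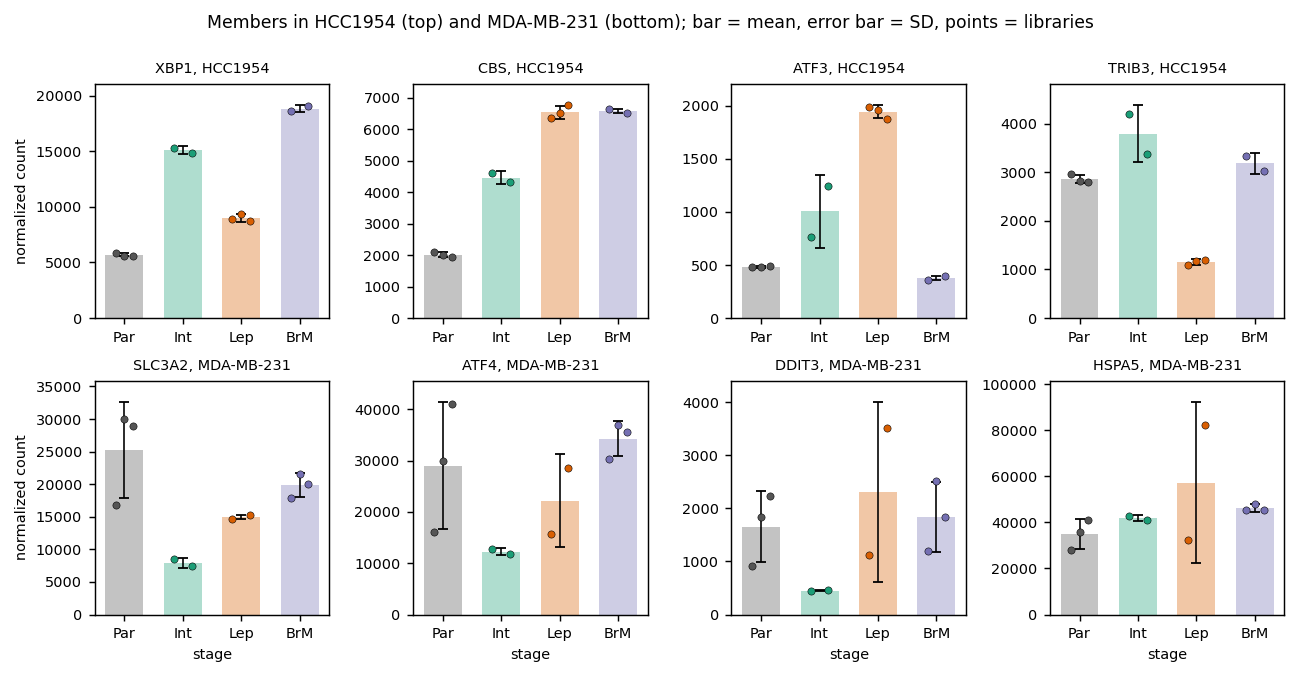
Normalized counts by stage for XBP1, CBS, ATF3 and TRIB3 in HCC1954 (top) and for SLC3A2, ATF4, DDIT3 and HSPA5 in MDA-MB-231 (bottom); bars are means, error bars SD and points single libraries. The points of HCC1954 lie close together within a stage except for ATF3 and TRIB3 in Int, whereas the 2 Lep points of DDIT3 and HSPA5 in MDA-MB-231 lie far apart.

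HCC1954 Lep cells had ATF4 arm members on both sides. In Lep with Par 4 of 24 rose and 3 fell, beside 13.0% of all 15561 genes that rose and 13.8% that fell, so the shares of the arm that rose and fell were near those of genes at large. ATF3 had 478, 480 and 489 normalized counts in Par and 1991, 1965 and 1879 in Lep, with 2.01 ± 0.12 (SE, adjusted p = 3.35e-09). CBS had 2098, 2018 and 1945 in Par and 6356, 6519 and 6759 in Lep, with 1.70 ± 0.04 (SE, adjusted p = 1.18e-13). CHAC1 had 96.5, 81.8 and 109 in Par and 237, 269 and 259 in Lep, with 1.41 ± 0.11 (SE, adjusted p = 5.94e-08). CEBPB had 12994, 12552 and 12763 in Par and 31558, 32473 and 28839 in Lep, with 1.28 ± 0.04 (SE, adjusted p = 3.14e-12). These 4 rose with no overlap of libraries.

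TRIB3 had 2962, 2829 and 2803 in Par against 1095, 1173 and 1195 in Lep, and fell with -1.31 ± 0.07 (SE, adjusted p = 5.12e-10). ATF5 fell with -1.24 ± 0.08 (SE, adjusted p = 6.9e-09) and PSPH, the last enzyme of serine synthesis, with -1.04 ± 0.05 (SE, adjusted p = 2.09e-10), which became -0.91 after the length and GC correction. CBS and CHAC1, which act on sulfur amino acids and glutathione, thus rose here, while CTH, the next step after CBS, had -0.56 ± 0.11 (SE, adjusted p = 0.000286). ATF4 had 9533, 9106 and 9397 in Par and 6597, 7047 and 6561 in Lep, with -0.47 ± 0.03 (SE, adjusted p = 6.51e-09), DDIT3 273, 248 and 264 against 192, 172 and 185, with -0.51 ± 0.09 (SE, adjusted p = 0.000122). ASNS had 1037, 965 and 972 in Par against 711, 736 and 736 in Lep, with -0.44 ± 0.08 (SE, adjusted p = 0.000133). These 3 were lower by adjusted p but not called. In the chaperone arm limma, edgeR and DESeq2 each called 0 of 13, with 5 higher and 5 lower by unadjusted p. HERPUD1 came nearest, from 1890, 1982 and 1871 in Par to 998, 1052 and 1038 in Lep, with -0.89 ± 0.04 (SE, adjusted p = 2.4e-10).

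XBP1 RNA differed between all stages of HCC1954. It had 5895, 5615 and 5615 normalized counts in Par, 15325 and 14816 in Int, 8884, 9375 and 8730 in Lep and 18575 and 19020 in BrM. No libraries of different stages overlapped, in the order Par, Lep, Int, BrM. Those of HSPA5, given below, did not overlap either, in the order BrM, Par, Lep, Int. Without a fold minimum 10399 to 12652 of all 15561 genes were called in the comparisons of HCC1954. The share of genes without overlap was not counted. XBP1 rose in Int with Par (1.40 ± 0.04 SE, adjusted p = 1.67e-12) and in BrM with Par (1.72 ± 0.04 SE, adjusted p = 2.02e-13), was below the threshold in Lep with Par (0.66 ± 0.03 SE, adjusted p = 3.15e-10) and fell in Lep with BrM (-1.06 ± 0.04 SE, adjusted p = 3.06e-11). HSPA5 had 28499, 28327 and 29130 in Par, 37631 and 39702 in Int, 27205 and 26205 in BrM and 32451, 32020 and 33718 in Lep, with 0.19 ± 0.03 (SE, adjusted p = 4.95e-05) in Lep, 0.43 ± 0.03 (SE, adjusted p = 6.46e-08) in Int and -0.10 ± 0.03 (SE, adjusted p = 0.0142) in BrM.

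In Int with Par of HCC1954, 4 members rose and 1 fell, beside 6.60% of all genes that rose and 14.6% that fell. CBS, at 4606 and 4321 in Int, rose with 1.14 ± 0.04 (SE, adjusted p = 3e-11), CHAC1, at 195 and 198, with 1.04 ± 0.13 (SE, adjusted p = 5.85e-06) and ATF3, at 764 and 1247, with 1.02 ± 0.14 (SE, adjusted p = 1.6e-05), and PSPH fell from 2296, 2352 and 2309 in Par to 1205 and 1056 in Int, with -1.04 ± 0.05 (SE, adjusted p = 1.23e-09). The Int libraries differed in ATF3, which without replicate 2 was at 0.66, and the call of PSPH was lost without Int replicate 2 (-0.94) and after the correction (-0.77), and that of CHAC1 without Par replicate 2 (0.93) and with a pseudocount of 8 (0.99). In BrM with Par 3 rose and 2 fell, beside 9.63% and 14.0% of all genes. CBS, at 6636 and 6530, rose with 1.70 ± 0.04 (SE, adjusted p = 6.54e-13) and CHAC1, at 243 and 216, with 1.26 ± 0.13 (SE, adjusted p = 7.85e-07). PHGDH went from 4569, 4422 and 4576 in Par to 1616 and 1472 in BrM and fell with -1.55 ± 0.04 (SE, adjusted p = 2.01e-12), and ATF5 with -1.21 ± 0.09 (SE, adjusted p = 3.82e-08), which became -0.94 after the correction.

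Against the Int cells of HCC1954, 2 members fell in Lep and 0 rose, beside 3.47% of all genes that fell and 15.1% called in either direction: TRIB3, from 4201 and 3373 in Int, with -1.71 ± 0.07 (SE, adjusted p = 5.95e-10), and ATF5, from 1428 and 1358 in Int to 546, 562 and 684 in Lep, with -1.23 ± 0.09 (SE, adjusted p = 6.36e-08). In Lep with BrM 2 members rose and 2 fell, beside 10.5% and 6.54% of all genes. ATF3, at 362 and 392 in BrM, rose with 2.36 ± 0.14 (SE, adjusted p = 4.64e-09) and PHGDH, at 3656, 3696 and 3583 in Lep, with 1.24 ± 0.04 (SE, adjusted p = 3.36e-11), while TRIB3, at 3334 and 3024 in BrM, fell with -1.46 ± 0.07 (SE, adjusted p = 1.34e-09) and XBP1 as given above. In HCC1954 the summed level of the 3 endothelial markers ran from 867 to 957 in Par and 4774 to 4803 in BrM, and that of the 5 fibroblast markers from 706 to 756 in Par and 1276 to 1325 in Lep, with COL1A2 at 0 in every library, and their part in these results was not tested.

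Across the 20 comparisons, 8 members were never called: ATF4, ASNS, PSAT1 and SHMT2, MTHFD2 of mitochondrial folate metabolism, and AARS and GARS in the ATF4 arm, and DNAJC3, a co-chaperone that inhibits the eIF2 kinase PERK, in the chaperone arm. The most often called were ATF5, CBS and CHAC1, in 8 comparisons each. ATF5 fell in all 8, whereas CBS rose in 5 and fell in 3, as did CHAC1. CTH was called in LLC only, where it fell in 5 comparisons. The same counts were not made over all genes. Whether members were called more or less often than genes at large is therefore not known from them. These comparisons share stages within a model and are not independent, and no difference between models was tested.

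The libraries of 1 stage differed from each other in a way that most ATF4 arm members shared. In LLC Par, whose replicates are technical per the labels, replicate 3 was the highest of the 3 libraries for 24 of 24 ATF4 arm members and for 38.4% of all genes, and its arm median was 0.18 above the group mean against -0.19 in replicate 1. It was also the shallowest Par library, with 29588710 reads against 49078570 and 52876610. The chaperone arm showed no such lean in LLC Par, with replicate 3 the highest for 4 of 13. In LLC BrM replicate 2 was the highest for 20 of 24 ATF4 arm members and 46.4% of all genes, and in PC9 BrM replicate 3 for 20 of 24 and 38.5%. Of the 2 HCC1954 Int libraries replicate 1 was the higher for 20 of 24 and 54.1%, with an arm median 0.04 above the group mean. Of its 2 BrM libraries replicate 1 was the higher for 17 of 24 and 49.2%. In HCC1954 Par, by contrast, the highest library was replicate 1, 2 or 3 for 11, 8 and 5 members, and the ATF4 arm medians lay between -0.01 and 0.01. What made these libraries differ was not tested.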

How the data were processed

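Per the labels, polyadenylated RNA of 41 libraries was sequenced as paired reads of 75 bases in MDA-MB-231 and 50 bases in the other models. The authors deposited 1 table per model, whose signal values are reads per gene scaled by a size factor of the library. FastQC 0.11.3, HTSeq 0.5.4 and DESeq2 are named in the submitters' processing notes, with builds hg19 and mm10. No aligner is named there. All values (100%, tolerance 0.01) came out as whole reads, so read totals could be recovered. Each table was normalized separately, and every test stayed within a model.

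Genes with at least 10 in at least 2 libraries were tested with limma 3.58.1 (trend, R 4.3.3) on log2(value + 1), all libraries of a model in 1 fit, with Benjamini-Hochberg adjustment over all genes. A call needed adjusted p below 0.05 and a log2 fold change of at least 1 in size. On this scale the changes of low genes are understated. The fit was also run on simulated data, and the outcome is not reported here. Alternatives were edgeR 4.0.16 and DESeq2 1.42.0 on the recovered reads, quantile normalization, a pseudocount of 8, no filter, only the 2 stages compared, a replicate block, a correction for length and GC content (human models, with lengths for 37 of 37 members), no fold minimum and leaving out each replicate. In MDA-MB-231 all 3 same-numbered Par and BrM libraries deviated together (r from 0.23 to 0.50), each above the 0.1 set for pairing, though no label states a pairing. Par replicate 3 correlated more with BrM replicate 2 (0.34) than with BrM replicate 3 (0.23). Libraries with different numbers in this model reached 0.42, so pairing by number is not shown. In no other pair of stages compared did every pair exceed 0.1. In Lep with Par edgeR called all-gene totals of 4203 in HCC1954, 2780 in LLC, 8 in MDA-MB-231 and 2212 in PC9.

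The members and lists were chosen with earlier results of these data known. Values in every library are given for up to the 5 largest called members per arm in Lep with Par and up to the 3 largest in other comparisons, for ATF4, DDIT3, ASNS, HSPA5 and XBP1 in the Par and Lep libraries of each model, and for further members chosen after their values were seen.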

Additional observations from a re-analysis of the deposited data

Results flagged for a closer look

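For 4 members the same comparison was called in opposite directions in different models, with every derivative library on 1 side of the parental libraries; no difference between models was tested, since the tables were normalized separately, and the log2 fold changes are given side by side. CBS in Lep with Par was at 1.70 in HCC1954 and -2.16 in LLC, where it had few counts. CHAC1 in Lep with Par was at 1.41 in HCC1954, 1.20 in PC9 and -1.45 in LLC. In Int with Par CHAC1 was at 1.04 in HCC1954 and -1.59 in LLC, and in BrM with Par at 1.26 and -1.47. NUPR1 in Lep with Par was at 3.16 in PC9, again from few counts, and -1.23 in LLC. PHGDH in BrM with Par was at -1.55 in HCC1954 and 1.01 in LLC. Some of these calls rested on single libraries, though none changed sign. Without Lep replicate 1, CHAC1 in Lep with Par was at 0.55 in PC9 and -0.94 in LLC, and NUPR1 at -0.76 in LLC. CHAC1 in Int with Par was at 0.93 in HCC1954 without Par replicate 2. PHGDH was at 0.84 in LLC without BrM replicate 2. Further losses of these calls are given above. Medium differed between PC9 or HCC1954 and LLC, as did species, and these cannot be told apart from the model.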

How the results depend on the processing

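Of 97 calls of a member in a comparison, 55 held under every alternative run for them, 42 were lost under at least 1 and 0 reversed. Without a fold minimum the members called were 33, 34, 33, 31 and 27 in HCC1954 (Lep, Int and BrM with Par, Lep with Int, Lep with BrM), 27, 23 and 14 in LLC (Lep with Par, Int and BrM), 31, 28, 17, 2 and 28 in PC9 (Lep, Int and BrM with Par, Lep with Int, Lep with BrM) and 11 in MDA-MB-231 (Int with Par). In the same order, all-gene counts were 12652, 11564, 11939, 10603 and 10399 of 15561 in HCC1954, so most genes there passed as well. They were 6606, 6477 and 6227 of 13494 in LLC, 9314, 9113, 6559, 393 and 9877 of 14475 in PC9, and 1586 of 15106 in MDA-MB-231. DESeq2 called 12, 1, 4 and 2 in MDA-MB-231 (Int with Par, Lep with Par, Int and BrM) and 2 in PC9 Lep with Int, where edgeR and a pseudocount of 8 also gave 2. Over all genes DESeq2 called 2170, 274, 470 and 740 in those comparisons of MDA-MB-231. In PC9 Lep with Int DESeq2, edgeR and the pseudocount of 8 called 97, 126 and 92 of all genes. With only the 2 stages compared, the counts were 1 in MDA-MB-231 Int with Par, 1 in its Lep with BrM, 2 in LLC Lep with BrM and 0 in PC9 Lep with Int. MDA-MB-231 Lep with Int gave 1 with quantile normalization, with a pseudocount of 8 and with the length and GC correction, which gave 5 in HCC1954 Lep with Int. Leaving out each replicate gave 3 to 5 members in HCC1954 Int with Par and 2 to 4 in its Lep with Int (both moved by Int replicate 2), and 6 to 14 in LLC Lep with Par (lowest without Lep replicate 1, highest without Lep replicate 3). It gave 0 to 16 in MDA-MB-231 Int with Par (every Par and Int library), 0 to 1 in Lep with BrM (either Lep library), 0 to 7 in Lep with Int (7 without Lep replicate 1) and 0 to 1 in Lep with Par (Lep replicate 1). In PC9 it gave 0 to 1 in BrM with Par (Par replicate 1), 0 to 2 in Lep with Int (Int replicate 2 and Lep replicate 2) and 2 to 4 in Lep with Par (Lep replicate 1). Where a lone library was left, it was assumed to vary like the other groups. The cause of these changes was not tested.

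Same-numbered libraries of different stages had correlations of their deviations above 0.1 for 0 of 13 pairs in HCC1954, 4 of 13 in MDA-MB-231, 0 of 13 in PC9 and 4 of 15 in LLC, and 1 of 10, 5 of 10, 5 of 10 and 7 of 11 libraries correlated best with their own number. Where every same-numbered pair of the stages compared exceeded 0.1 (MDA-MB-231 Par and BrM) the replicate block called 0 members, as without it. Both same-numbered pairs of LLC Int and BrM also exceeded 0.1 (0.106 and 0.126), but these stages were not compared with each other. With the replicate block the members called were 1 in MDA-MB-231 Lep with Int and 2 in PC9 Lep with Int, and the other 18 counts stayed within 1.5 times. The calls of SARS (-0.97), SEL1L (0.96) and ATF5 (-0.98) in MDA-MB-231 Int with Par and of SLC7A5 (-0.95) in LLC Int with Par were lost with the block (limma), and DDIT3 in MDA-MB-231 Int with Par was called (-1.63).

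Over all genes the counts of MDA-MB-231 were the least stable of the 4 models: 1049 in Int with Par became 2170 with DESeq2, 356 with the 2 stages only, 3845 without Par replicate 1 and 0 without Int replicate 2, and 10 in Lep with Par became 274 with DESeq2, 37 after the correction and 112 without Par replicate 1. Its BrM with Par count of 68 ranged from 2 to 471, Lep with BrM (125) from 6 to 740 and Lep with Int (24) from 0 to 470. PC9 Lep with Int (88) ranged from 1 to 393, and LLC Int with Par (1548) fell to 1004 without Int replicate 2. Without a fold minimum the all-gene counts ran up to 12652. The length and GC correction was not run for LLC. Values at a few reads, such as those of NUPR1 and DERL3 in PC9 and CBS in LLC, are limited by depth.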

Other observations

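Genes of the same pathways outside the 37 members were read from 3 further lists in Lep with Par. In LLC 12 of 34 tested genes of the amino acid response fell and 0 rose, beside 12.3% of all genes that fell, with a median log2 fold change of -0.59. FGF21, a secreted hormone induced by ATF4, averaged 341 ± 108 normalized counts (SD, n = 3) in Par and 7.18 ± 10.3 (n = 3) in Lep, with -6.32. KLHL24 averaged 2702 ± 91.3 in Par and 351 ± 87.3 in Lep (-2.97), STC2, a secreted glycoprotein, 109 ± 41.2 and 12.8 ± 2.21 (-2.93), and VLDLR, a lipoprotein receptor, 2409 ± 527 and 486 ± 172 (-2.35). Of 31 further unfolded protein response genes 3 fell, a share no higher than that of all genes: the transcription factor CREB3L2 (-1.22) and the ER oxidases ERO1LB (-1.15) and ERO1L (-1.13). Of 18 stress sensors and eIF2 factors limma called 0, with 4 higher and 4 lower by adjusted p alone.

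In HCC1954 6 of 33 amino acid response genes rose and 2 fell, beside 13.0% and 13.8% of all genes. ALDH1L2, a mitochondrial folate enzyme, averaged 41.0 ± 7.86 (n = 3) in Par and 1071 ± 113 (n = 3) in Lep, with a log2 fold change of 4.68. SLC7A11, the cystine importer, averaged 15406 ± 613 in Par and 1345 ± 36.1 in Lep, with -3.52. VLDLR (2.49) and the secreted factor GDF15 (2.10) rose, EDEM2 (-1.04) and EIF2B2 (-1.38), a subunit of the eIF2 exchange factor, fell, and ERO1L (1.00) rose. In PC9 1 of 34 amino acid response genes rose and 3 fell, and likewise 1 and 3 of 33 unfolded protein response genes, beside 15.1% of all genes called in either direction. SLC7A11 averaged 15041 ± 482 (n = 3) in Par and 4990 ± 24.2 (n = 2) in Lep, with -1.59, and GDF15 (-1.68) and STC2 (-1.54) fell too, while FGF21 rose from 2.90 ± 1.34 to 18.3 ± 10.5 (2.26). ERN1, the ER sensor IRE1 that splices XBP1, averaged 225 ± 20.7 in Par and 53.9 ± 7.73 in Lep, with -2.05, while XBP1 RNA had a log2 fold change of 0.96. MBTPS2, a protease that activates ATF6, and TXNDC5 fell with -1.44 and -2.72, DNAJC10 fell from 3452 ± 115 to 1748 ± 414, and DERL3, near the detection limit, rose with 1.62. In MDA-MB-231 limma called 0 genes of the 3 lists, beside 0.0662% of all genes.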
